A study of Homo sapiens with 24 samples.

Results

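The 10 genes described here encode the enzymes that hydroxylate and crosslink collagen: the collagen prolyl 4-hydroxylase subunits P4HA1, P4HA2, P4HA3 and P4HB, the lysyl hydroxylases PLOD1, PLOD2 and PLOD3, and the lysyl oxidases LOX, LOXL1 and LOXL2. They were chosen by name from 23106 gene symbols in the counts, and 9 of the 10 were among the 11735 genes that passed the filter on low counts. RNA was sequenced from RCC4+VHL cells, a renal cell carcinoma line that lacks its own functional VHL and was stably transfected with wild-type VHL, so that every library comes from 1 reconstituted clone. There were 4 groups of 6 replicates, each treated for 6 h: normoxia + DMSO (21% oxygen with 0.1% DMSO vehicle), normoxia + ITE (21% oxygen with 100 nM ITE, an indole ligand of the aryl hydrocarbon receptor AHR), hypoxia + DMSO (0.5% oxygen with the vehicle) and hypoxia + ITE (0.5% oxygen with 100 nM ITE). The comparisons ask how low oxygen, which stabilises the transcription factor HIF, and AHR activation change expression, separately and in combination.

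Collagen chains are hydroxylated on proline and lysine in the endoplasmic reticulum before they fold. Prolyl 4-hydroxylation stabilises the triple helix, and the enzyme is a tetramer of catalytic alpha subunits (P4HA1, P4HA2 or P4HA3) with P4HB, which is also known as protein disulfide isomerase. Lysyl hydroxylases prepare sites for glycosylation and for crosslinks, and outside the cell the copper-dependent lysyl oxidases convert lysine residues to the aldehydes from which crosslinks form. The hydroxylases use oxygen and 2-oxoglutarate as substrates, and several genes of the family are textbook targets of HIF.

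Libraries differed widely in depth, with total counts from 770094 to 93851342, so 3 counts corresponded to between 0.032 and 3.90 CPM (reads of a gene scaled to a common library size by TMM normalisation) and such floors cover counting error only. The renal and carcinoma markers PAX8, PAX2, KRT8 and KRT18 were detected in 24 of 24 libraries. So were VIM and VHL of the same list, but neither is specific to renal cells, and VHL was transfected into this clone. By contrast, 0 of 4 endothelial and leukocyte markers and 1 of 6 fibroblast markers (PDGFRB) passed the filter. Several libraries stood apart, each in its own measure. In normoxia + DMSO replicate 4, 36 genes had over 30 reads each with under 6 reads summed over the other 23 libraries, and no other library held such a gene. They included the fibrillar collagens COL1A2 (442 reads) and COL3A1 (435 reads) and the muscle genes MYH7 (230 reads) and CKM (210 reads), and DCN, a fibroblast marker, had 81 reads there and 0 elsewhere. The summed level of the 6 fibroblast markers ranged from 27.0 to 69.3 CPM in normoxia + DMSO and from 17.8 to 48.5 CPM in the other groups. In hypoxia + ITE replicate 6, deviations from the group mean followed the GC content of the transcripts, with a Spearman correlation of 0.68 across 10623 genes against -0.47 to 0.16 in the other 23 libraries. Genes are not independent replicates, and the correlation is a description only. By limma's sample quality weights, the lowest libraries were hypoxia + ITE replicate 6 (0.072), hypoxia + ITE replicate 3 (0.173) and hypoxia + DMSO replicate 1 (0.252), against at least 0.72 in the other 21, normoxia + DMSO replicate 4 among them (0.981). Member results that change without one of these libraries are given with and without it.

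Per kilobase of its canonical transcript, P4HB was the most abundant of the 10 in normoxia + DMSO, at 384 ± 26.9 CPM per kb (SD, n = 6). PLOD2 (73.9 ± 6.09 CPM per kb) and LOXL2 (72.6 ± 8.97 CPM per kb) followed and lay within each other's spread. The next tier held LOXL1 (34.1 ± 7.06), PLOD1 (33.5 ± 4.25), P4HA1 (28.7 ± 2.19), PLOD3 (25.9 ± 2.38) and P4HA2 (22.6 ± 3.16 CPM per kb), in which neighbours in the order differed by less than the sum of their SDs. LOX lay lower, at 5.16 ± 1.05 CPM per kb. The order shifted in hypoxia + DMSO, where P4HA1 reached 76.4 ± 9.40 CPM per kb, within the spread of LOXL2 (83.4 ± 18.6 CPM per kb), and PLOD2 reached 148 ± 18.4 CPM per kb. P4HA3 was close to absent from these cells. Its group totals over 6 libraries were 19 reads in normoxia + DMSO, 18 in normoxia + ITE, 11 in hypoxia + DMSO and 14 in hypoxia + ITE. The highest level of P4HA3 in any library was 1.10 CPM. It did not pass the filter on low counts, so differences between groups were not tested for it.

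P4HA1 lies on the minus strand of chromosome 10 of GRCh37 from 74766975 to 74856732, PLOD2 on the minus strand of chromosome 3 from 145752926 to 145881512, and LOX on the minus strand of chromosome 5 from 121398890 to 121414108. Their promoters were examined because the paper gives RCGTG (ACGTG or GCGTG) as the HIF motif, of which HIF strongly favoured ACGTG. RefSeq promoter sequences (GRCh38.p14 table) matched 8 of the 10 members, and the 250 bases before each start were located once each in GRCh37. P4HA3 and LOXL2 were not used here. ACGTG, read on either strand (ACGTG or CACGT), occurred in 18.5% of 34961 promoter windows of this length and in 22.5% of 12850 windows of tested genes. Of the 8 members it occurred in 3, namely P4HA1 (1 match), PLOD2 (2 matches) and LOX (4 matches). The 29 bases around each match are shown 5′ to 3′ on the strand of the gene, with the match in capitals, and their GRCh37 positions follow.
P4HA1, 86 bases before the start: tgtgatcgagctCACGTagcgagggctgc
PLOD2, 200 bases before the start: cgtgagcctccaCACGTagccgcaggcag
PLOD2, 146 bases before the start: caaacagtccagACGTGgggcccaggagg
LOX, 185 bases before the start: gctccctgtgcaACGTGtctggggggagg
LOX, 116 bases before the start: ctgtccgccttgCACGTttccaatcgcat
LOX, 98 bases before the start: tccaatcgcattACGTGaacaaatagctg
LOX, 42 bases before the start: gtaactttgcaaACGTGccagaaagttta

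The P4HA1 stretch is chr10:74856694-74856722. The PLOD2 stretches are chr3:145879155-145879183 and chr3:145879101-145879129, and the LOX stretches are chr5:121414123-121414151, chr5:121414054-121414082, chr5:121414036-121414064 and chr5:121413980-121414008. Parts of these windows (108 of 250 bases for P4HA1, 250 for PLOD2 and 154 for LOX) fall in exons of other annotated transcripts of the same gene. The windows of P4HB, PLOD1, PLOD3, LOXL1 and P4HA2 held no match to ACGTG. The nearest RefSeq start of P4HA2 lay 762 bases from its canonical start. The other variant, GCGTG (or CACGC), occurred in the windows of PLOD1 (2 matches), P4HB (1 match) and PLOD2 (1 match). The windows of P4HA1, LOX, PLOD3, LOXL1 and P4HA2 held none. GCGTG occurred in 32.2% of all promoter windows and in 43.9% of those of tested genes. RCGTG thus also occurred in P4HB and PLOD1, which did not pass the hypoxia tests below. A match is a stretch of letters and not a measured binding site, and no match says only that these letters are not in that window.

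Hypoxia raised 3 of the 9 tested members in the presence of DMSO. P4HA1, PLOD2 and LOX rose 2.66-, 2.01- and 1.76-fold in mean CPM, and 0 members fell. Over all tested genes 1.16% were called higher and 0.136% lower in hypoxia + DMSO compared with normoxia + DMSO, by edgeR's quasi-likelihood test at an adjusted p under 0.05. The median log2 fold change was 0.20 over the 9 members and 0.00 (-0.003) over all genes. The members called were 1 of the 2 tested prolyl hydroxylase alpha subunits, 1 of 3 lysyl hydroxylases and 1 of 3 lysyl oxidases. Groups that do not overlap and counts of same-numbered pairs are given below as descriptions of the members. Their share over all tested genes was not counted. In bulk cultures, a change in RNA per cell and a change in the make-up of the culture cannot be told apart.

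**Figure D1:**
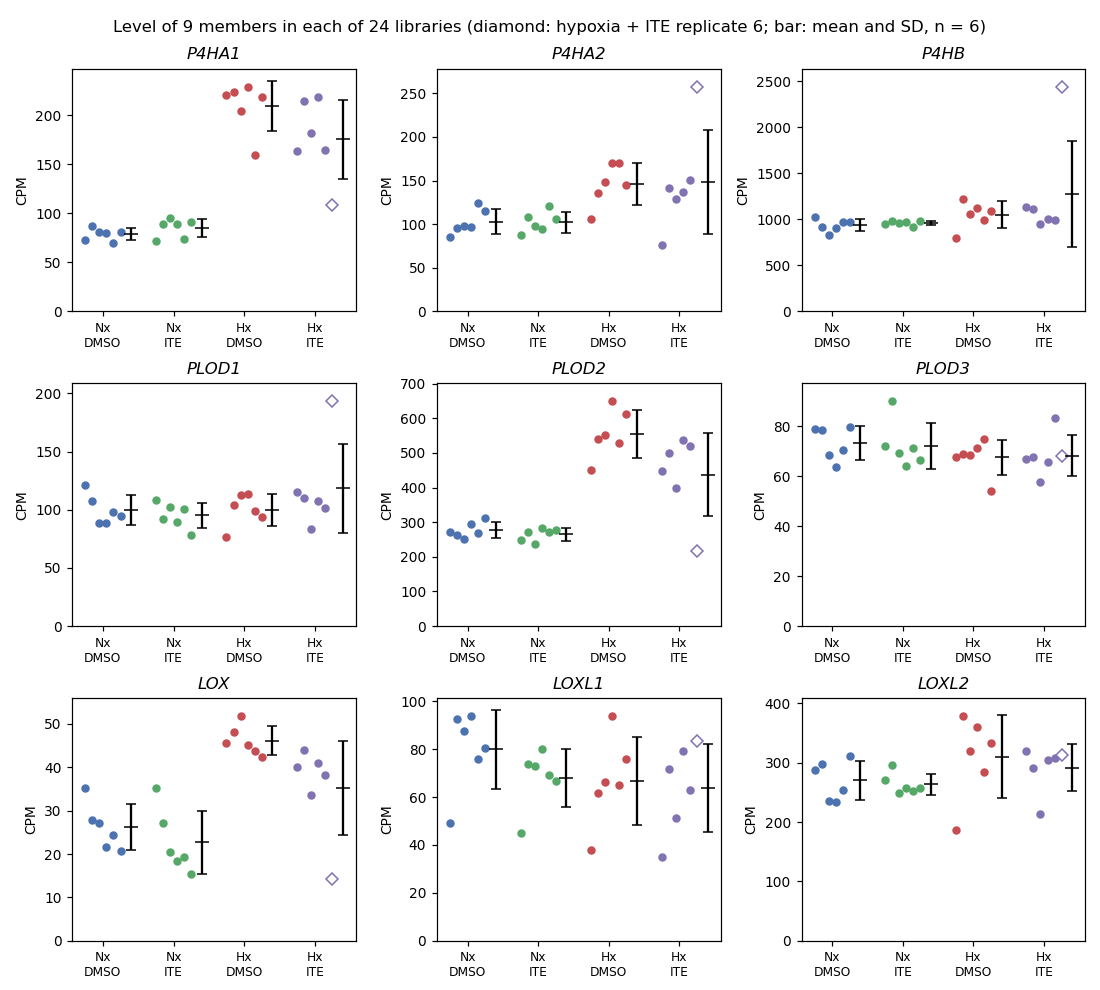
Level of the 9 tested members in each of the 24 libraries, in CPM on linear axes that start at 0, by group (Nx, normoxia; Hx, hypoxia); horizontal marks with bars give the mean and SD of 6 libraries, and the open diamond is hypoxia + ITE replicate 6. The 6 hypoxia + DMSO libraries lie above all 6 normoxia + DMSO libraries for P4HA1 (at least 159.7 CPM against at most 87.0 CPM), PLOD2 and LOX, and the diamond lies apart from its group for P4HA1, PLOD2, LOX, P4HB, PLOD1 and P4HA2.

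P4HA1, the principal catalytic subunit of collagen prolyl 4-hydroxylase, had a lowest, median and highest level of 70.3, 80.4 and 87.0 CPM in normoxia + DMSO and 159.7, 219.9 and 229 CPM in hypoxia + DMSO. The groups did not overlap, and the hypoxic level was higher in 6 of 6 same-numbered pairs. The log2 fold change was 1.41 (SE 0.13, adjusted p = 2.50e-08 from edgeR), and it stayed past the threshold without each of the 24 libraries in turn (adjusted p at most 2.56e-07). P4HA2, the second alpha subunit, had levels of 85.6, 97.4 and 124 CPM in normoxia + DMSO and 106, 146 and 170.0 CPM in hypoxia + DMSO. Here 5 of 6 hypoxic libraries lay above all normoxic libraries, and the hypoxic level was higher in 6 of 6 same-numbered pairs. Hypoxia + DMSO replicate 1, which has a low quality weight, overlapped with the normoxic libraries (without it, log2 difference 0.59, adjusted p = 0.136 from edgeR). Replicate 1 was the lowest P4HA2 library in each of the 4 groups. It was at 85.6 CPM in normoxia + DMSO, 87.2 in normoxia + ITE, 106 in hypoxia + DMSO and 75.8 in hypoxia + ITE. The log2 difference was 0.51 (SE 0.18, adjusted p = 0.235 from edgeR), which did not pass the threshold, but without hypoxia + ITE replicate 6 in the model the same difference of 0.51 did (adjusted p = 0.0272 from edgeR), in a fit that called 2.02% of all genes higher.

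P4HB, the beta subunit and a disulfide isomerase with many other substrates, ranged from 833 to 1022 CPM in normoxia + DMSO and from 794 to 1227 CPM in hypoxia + DMSO, with a log2 difference of 0.16 (SE 0.17, adjusted p = 0.821). The ranges overlapped, and the 95% interval ran from -0.18 to 0.50. P4HB lies on the minus strand of chromosome 17 of GRCh37 from 79801035 to 79818732, and P4HA2 on the minus strand of chromosome 5 from 131525840 to 131631008.

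PLOD2, the lysyl hydroxylase of the collagen telopeptides, had a lowest, median and highest level of 251, 269 and 314 CPM in normoxia + DMSO and of 452, 546 and 649 CPM in hypoxia + DMSO. Every hypoxic library was above every normoxic one. The log2 fold change was 1.004 (SE 0.15, adjusted p = 5.26e-05 from edgeR), with adjusted p at most 3.27e-04 when any 1 library was left out. Without normoxia + DMSO replicate 4, the log2 fold changes of P4HA1 and PLOD2 were 1.41 and 1.02. The other lysyl hydroxylases did not pass the test. PLOD1, which acts on the helical part of the chains, had medians of 96.3 and 102 CPM and a log2 difference of 0.00 (95% interval -0.31 to 0.31, adjusted p = 0.9999). PLOD3, which also glycosylates hydroxylysine, had medians of 74.4 and 68.7 CPM and a log2 difference of -0.11 (95% interval -0.34 to 0.11, adjusted p = 0.807). Both overlapped between the groups. PLOD1 lies on the plus strand of chromosome 1 of GRCh37 from 11994262 to 12035595 and PLOD3 on the minus strand of chromosome 7 from 100849258 to 100861701.

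LOX, the founding lysyl oxidase, had levels of 20.7, 25.8 and 35.3 CPM (lowest, median and highest) in normoxia + DMSO and 42.5, 45.3 and 51.9 CPM in hypoxia + DMSO. The groups did not overlap, although the call was close to the threshold, with a log2 fold change of 0.82 (SE 0.20, adjusted p = 0.0355 from edgeR). It was lost without any 1 of 11 of the 12 compared libraries (all but normoxia + DMSO replicate 1), with adjusted p from 0.0538 to 0.106 and log2 fold changes of at least 0.76. Without normoxia + DMSO replicate 4, the library with the muscle and fibroblast reads, it was 0.76 (adjusted p = 0.101), and without hypoxia + ITE replicate 6 it was 0.81 (adjusted p = 0.00129). LOXL1, a lysyl oxidase known for its part in elastic fibres, had medians of 84.0 and 65.7 CPM and a log2 difference of -0.26 (SE 0.20, adjusted p = 0.739). Its lowest library was replicate 1 in each of the 4 groups, at 49.2, 45.1, 38 and 34.9 CPM. LOXL2, which oxidises type IV collagen of basement membranes, had medians of 271 and 327 CPM and a log2 difference of 0.20 (SE 0.13, adjusted p = 0.696). LOXL1 and LOXL2 overlapped between the groups. LOXL1 lies on the plus strand of chromosome 15 of GRCh37 from 74218330 to 74244478 and LOXL2 on the minus strand of chromosome 8 from 23154410 to 23282841.

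With ITE present at both oxygen levels, hypoxia raised 2 of the 9 members, P4HA1 and PLOD2, and 0 fell. The shares called over all tested genes were 1.89% higher and 0.46% lower. The share called higher depended on single libraries: it was 3.71%, 5.12% and 5.41% without hypoxia + ITE replicate 1, 4 or 5, and 1.63% without replicate 6. The median log2 fold change was 0.41 over the members and 0.02 over all genes, and without hypoxia + ITE replicate 6 it was 0.12 over the members and 0.01 over all genes. P4HA1 ran from 72.1 to 95.3 CPM (median 88.9) in normoxia + ITE and from 109 to 219 CPM (median 173) in hypoxia + ITE, without overlap, and its log2 fold change was 1.05 (SE 0.13, adjusted p = 6.12e-06 from edgeR). PLOD2 ran from 238 to 284 CPM (median 272) and from 216 to 538 CPM (median 474), and rose by 0.72 on the log2 scale (SE 0.15, adjusted p = 0.00407 from edgeR). For PLOD2, 5 of 6 hypoxic libraries were above all normoxic ones, and replicate 6 was below them all. LOX ran from 15.4 to 35.2 CPM (median 19.9) and from 14.2 to 43.9 CPM (median 39.2), a log2 difference of 0.65 (SE 0.20, adjusted p = 0.0811). In LOX, too, replicate 6 of hypoxia + ITE was the lowest of its group, and 4 of 6 hypoxic libraries were above all normoxic ones.

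The same library was also the highest of its group for members that did not pass the test. In hypoxia + ITE replicate 6, P4HB was at 2443 CPM against 952 CPM in the lowest library of its group, PLOD1 at 193 CPM against 83.4 CPM and P4HA2 at 258 CPM against 75.8 CPM. The members with the lowest GC content in their canonical transcript, PLOD2 (37.7%), LOX (39.6%) and P4HA1 (39.7%), lay 0.95, 1.21 and 0.65 below the group mean on the log2 scale (deviations of -0.95, -1.21 and -0.65). P4HB (57.2% GC) and PLOD1 (58.8% GC) lay 1.03 and 0.76 above it. The order was not complete, since P4HA2 (45.0% GC) lay 0.89 above the mean and PLOD3 (61.4% GC) deviated by 0.01. LOXL2 (57.5% GC) lay only 0.12 above it, and LOXL1, with the highest GC content (67.0%), lay 0.45 above. The part of GC content in these deviations was not tested. When the library was left out, LOX was called higher in hypoxia + ITE than in normoxia + ITE (0.81, SE 0.16, adjusted p = 0.00275 from edgeR), P4HA1 rose by 1.16 and PLOD2 by 0.86, and the differences were 0.11 for P4HB, 0.11 for PLOD1 and 0.33 for P4HA2. P4HA2, 0.55 with all libraries (SE 0.18, adjusted p = 0.0904), passed the threshold without hypoxia + ITE replicate 1 (0.67, adjusted p = 0.0149 from edgeR). LOX also passed it without normoxia + ITE replicate 1 (0.82, adjusted p = 0.0274 from edgeR).

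**Figure D2:**
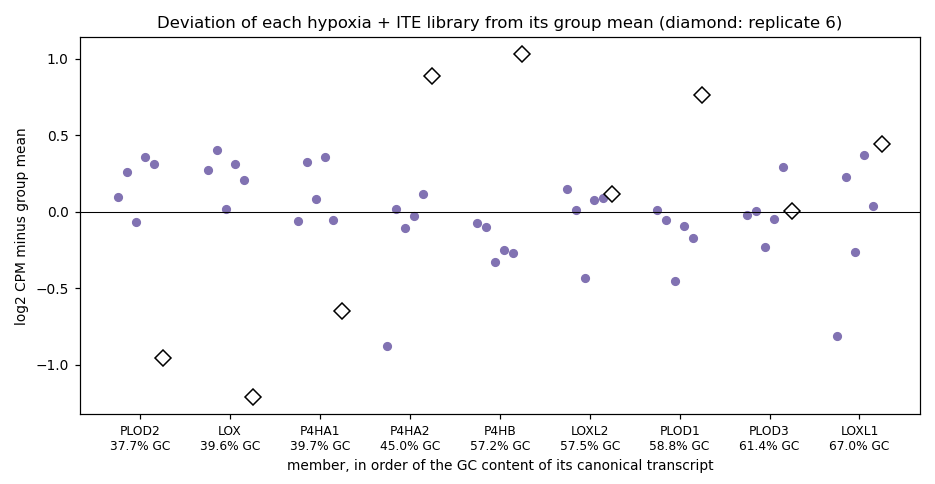
Deviation of each of the 6 hypoxia + ITE libraries from the group mean, in log2 CPM, for the 9 tested members placed in order of the GC content of the canonical transcript. Filled points are replicates 1 to 5 and the open diamond is replicate 6, which lies below the mean for PLOD2, LOX and P4HA1 at the left and above it by 1.03 for P4HB, with P4HA2, PLOD3, LOXL2 and LOXL1 out of the order.

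ITE alone changed none of the members detectably. In normoxia + ITE compared with normoxia + DMSO, 0 of 9 were called by edgeR, while 0.0511% of all tested genes were called. An unadjusted p under 0.05 was found for 0 of 9 members and for 171 of 11735 genes. The log2 differences ran from -0.24 (LOXL1) to 0.11 (P4HA1), and their 95% intervals lay between -0.63 and 0.38. LOX and LOXL1 had log2 differences of -0.21 (95% interval -0.63 to 0.20) and -0.24 (95% interval -0.63 to 0.16), each with an edgeR adjusted p of 0.9998. Both were lower with ITE in 6 of 6 same-numbered pairs, while the other members were higher in 2 to 5 of 6. The labels do not say that these numbers mark pairs, so the pair counts are a description only. The ligand was active in these cells, since the AHR target CYP1B1, a cytochrome P450 of xenobiotic metabolism, rose by 2.51 (SE 0.20, adjusted p = 7.64e-09 from edgeR).

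With ITE added under hypoxia, every tested member but PLOD1 had lower values in most same-numbered pairs, and none passed the test. PLOD1 was higher in 4 of 6 pairs, and P4HA2, P4HB, PLOD3, LOXL1 and LOXL2 were each higher in 2 of 6. In hypoxia + ITE compared with hypoxia + DMSO, 0 of 9 members and 0.0597% of all genes were called. An unadjusted edgeR p under 0.05 was found for 1 of 9 members and for 1122 of 11735 genes. PLOD2 was lower in 6 of 6 pairs, with a log2 difference of -0.35 (95% interval -0.64 to -0.05, adjusted p = 0.494 from edgeR). LOX was lower in 6 of 6 pairs (-0.38, 95% interval -0.80 to 0.04), and P4HA1 was higher in 1 of 6 (-0.25, 95% interval -0.52 to 0.02). Without hypoxia + ITE replicate 6 these differences were -0.21, -0.22 and -0.14. The test of the difference itself, the interaction of ITE and oxygen, called 0 of 9 members and 0% of all genes. In it 0 members had an unadjusted p under 0.05, against 374 of 11735 genes. The interaction was -0.36 for P4HA1 (95% interval -0.74 to 0.02), -0.28 for PLOD2 (-0.70 to 0.14) and -0.16 for LOX (-0.75 to 0.42). That hypoxia passed the threshold for LOX with DMSO and not with ITE is therefore not shown to be a difference between the treatments. The 4 comparisons share groups, and their values are set side by side only.

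**Figure D3:**
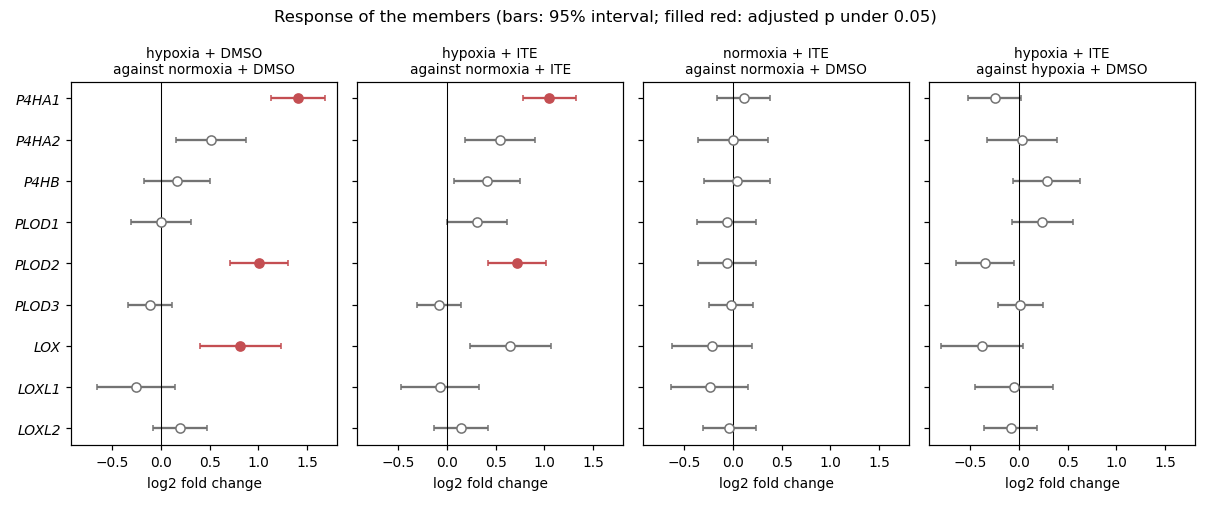
Log2 fold change of the 9 tested members in the 4 comparisons, with 95% intervals from edgeR's quasi-likelihood fit; filled red points have an adjusted p under 0.05. Hypoxia moved P4HA1, PLOD2 and LOX with DMSO (1.41, 1.004 and 0.82) and P4HA1 and PLOD2 with ITE (1.05 and 0.72), and no interval of ITE in normoxia excludes 0.

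Ratios of 2 members within a library do not depend on the normalisation between libraries, and 3 were compared by exact two-sided permutation tests of 6 against 6 libraries, whose smallest possible p is 0.00216, over 12 tests in all. The log2 ratio of P4HA1 to P4HB reads, catalytic to beta subunit, rose by 1.25 in hypoxia + DMSO, from a mean of -3.57 to -2.32 (exact permutation p = 0.00216, 0.00866 after Benjamini-Hochberg adjustment). The ratio of PLOD2 to PLOD1 rose by 0.998, from 1.48 to 2.48, and that of LOX to LOXL2 by 0.67, from -3.38 to -2.71, each with an exact permutation p = 0.00216 (adjusted 0.00866). All 3 ratios separated the hypoxia + DMSO libraries from the normoxia + DMSO libraries without overlap. The numerators are the 3 members called on these same counts, and the denominators are members that were not called. The ratios thus restate those calls without library scaling and are not separate support for them. In each ratio the numerator has the lower GC content (39.7% against 57.2%, 37.7% against 58.8% and 39.6% against 57.5%, in the order above). The part of GC content in the ratios was not tested.

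With ITE the 3 ratios did not pass the test (differences 0.70, 0.40 and 0.47 with exact permutation p = 0.0779, 0.312 and 0.165). Hypoxia + ITE replicate 6 had the lowest value of all 24 libraries in each ratio, and without it the differences were 1.03, 0.74 and 0.73, with exact permutation p = 0.00216, 0.00433 and 0.00866. The ratio of PLOD2 to PLOD1 was lower in hypoxia + ITE than in hypoxia + DMSO, by a difference of -0.60 (exact permutation p = 0.00866, adjusted 0.0260). That difference was -0.26 without hypoxia + ITE replicate 6 (exact permutation p = 0.0173). It was between -0.59 and -0.55 without hypoxia + DMSO replicate 1, 4 or 6, with exact permutation p from 0.0606 to 0.0671.

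**Figure D4:**
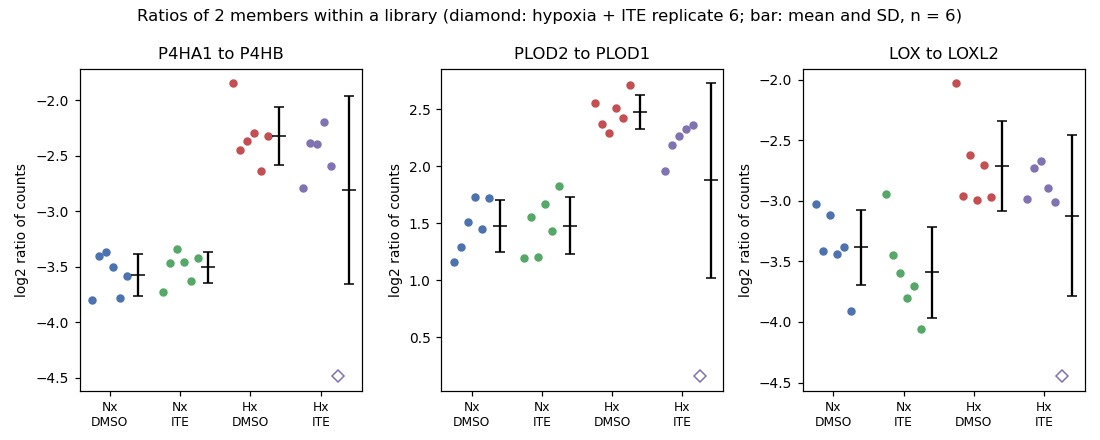
Log2 ratio of the reads of 2 members within each library, by group, with the mean and SD of 6 libraries; the open diamond is hypoxia + ITE replicate 6. For each ratio the hypoxia + DMSO libraries lie above all normoxia + DMSO libraries, and the diamond is the lowest of the 24 points, at -4.48, 0.16 and -4.45.

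No collagen chain passed the test. Of 44 collagen chain genes, 17 were tested and 0 were called in either hypoxia comparison, with median log2 fold changes of -0.18 with DMSO and 0.07 with ITE. The most abundant chains were COL4A1 and COL4A2 of basement membrane type IV collagen, at 1117 ± 215 and 1013 ± 187 CPM in normoxia + DMSO (SD, n = 6), with log2 differences of -0.03 and -0.07 (adjusted p = 0.981 and 0.950 from edgeR). COL1A1, of fibrillar type I collagen, had the largest difference of the chains, -1.68 (SE 0.62, adjusted p = 0.302), and this was -0.05 (SE 0.39, adjusted p = 0.986) without normoxia + DMSO replicate 4. Without that library 16 chains were tested, 0 were called and the median was -0.12.

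Of 13 genes of collagen folding in the endoplasmic reticulum 12 were tested, of 16 procollagen proteinases and partners of crosslinking 11, and of 9 protein disulfide isomerases and oxidases 8. In these lists 0 genes were called in either hypoxia comparison. With DMSO the log2 differences ran from -0.94 to 0.34, -0.42 to 0.22 and -0.32 to 0.34, in that order. They ran from -1.23 to 0.58, -0.81 to 0.61 and -0.21 to 0.21 with ITE. With ITE 5 of 12, 3 of 11 and 0 of 8 had an unadjusted edgeR p under 0.05, against 2361 of 11735 genes. With DMSO 0 of 12, 0 of 11 and 1 of 8 did, against 1111 of all tested genes. CRTAP, a partner of the prolyl 3-hydroxylase, had a log2 difference of 0.11 with DMSO (SE 0.10, adjusted p = 0.781 from edgeR) and 0.08 with ITE. SERPINH1, the collagen chaperone HSP47, had a log2 difference of 0.00 with DMSO (SE 0.09, adjusted p = 0.997) and 0.03 with ITE (SE 0.09, adjusted p = 0.899). Fibronectin, FN1, which binds procollagen processing enzymes in the matrix, had -0.34 and -0.44 (adjusted p = 0.672 and 0.267). TXNDC5, an isomerase of the endoplasmic reticulum, had 0.04 and -0.08 (adjusted p = 0.955 and 0.774), and PDIA4, another isomerase related to P4HB, had -0.09 and -0.04 (adjusted p = 0.813 and 0.856).

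Among the oxygen-sensing hydroxylases, which belong to the same enzyme superfamily, EGLN1 was the 1 of 4 tested genes called higher. Its log2 fold change was 0.82 with DMSO and 0.65 under ITE (edgeR adjusted p = 2.50e-05 and 7.97e-04). The median of the 4 was -0.10 with DMSO and 0.39 with ITE, where 2 of 4 had an unadjusted edgeR p under 0.05. Without hypoxia + ITE replicate 6 the median with ITE was 0.11. EGLN1 is the main prolyl hydroxylase of HIF. All 8 tested HIF reference targets rose in both hypoxia comparisons, with medians of 2.51 and 2.48, and among them PFKFB4, a regulator of glycolysis, rose by 3.41 and VEGFA, the angiogenic ligand, by 0.87 with DMSO. The glucose transporter SLC2A1 rose by 1.47 and PDK1, which inhibits pyruvate dehydrogenase, by 1.61 with DMSO. BNIP3, NDRG1, ADM and ANKRD37 rose by 2.55, 3.25, 2.47 and 2.81. Beside these, P4HA1 (1.41) and PLOD2 (1.004) lay between VEGFA and SLC2A1, and LOX (0.82) below VEGFA.

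**Figure D5:**
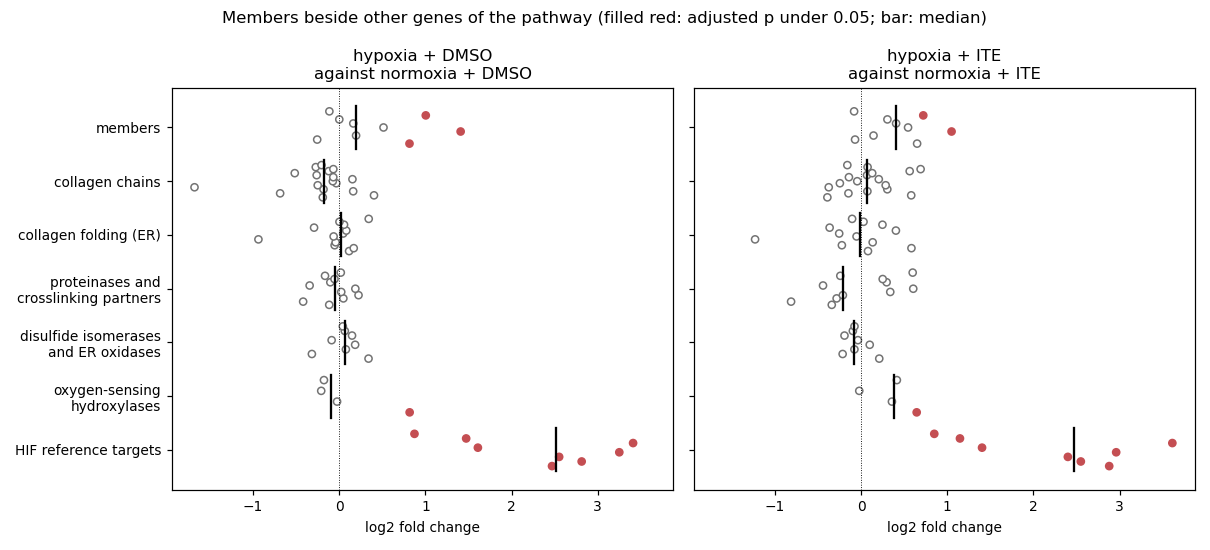
Log2 fold change of each tested gene of 7 lists in hypoxia with DMSO (left) and with ITE (right); filled red points have an adjusted p under 0.05 and vertical bars are medians. The filled points lie among the members, at EGLN1 and among the HIF reference targets. On the left the other medians run from -0.18 (collagen chains) to 0.07 (disulfide isomerases and oxidases), with COL1A1 at -1.68. On the right they run from -0.21 (proteinases and partners) to 0.39 (oxygen-sensing hydroxylases).

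As a description over the 24 libraries, P4HA1 was most like PDK1 (Pearson r of log2 CPM 0.98), ARRDC3 (0.98) and BNIP3L (0.97). PLOD2 was most like EGLN1 (0.96), AK4 (0.94) and PFKFB3 (0.94), and LOX was most like TSPAN2 (0.89), EGLN1 (0.88) and FZD1 (0.87). P4HA2 was most like VASH1 (0.91), TNIP1 (0.86) and SH3D21 (0.86). Among the members, P4HA1 and PLOD2 had r of 0.91 and PLOD2 and LOX 0.82, while P4HA1 and P4HA2 had 0.47 and P4HB and PLOD1, both high in hypoxia + ITE replicate 6, had 0.85. The libraries share the 4 conditions and hypoxia + ITE replicate 6, which these values carry.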

How the data were processed

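Poly-A RNA from RCC4+VHL cells was sequenced by the study in 24 libraries, 6 independent replicates in each of 4 groups. The authors trimmed reads (Trim Galore 0.3.3), aligned them to GRCh37 with HISAT2, removed fragments that did not map uniquely (Picard 2.0.1) and counted reads per UCSC-defined gene (HTSeq 0.5.4p3). The deposited values are raw counts for each symbol in each library, which the authors did not normalise. The library kit was directional, but the strand setting of the counting is not given in the sources used here, so reads of members cannot be told apart from those of overlapping genes on the other strand (SRFBP1 at LOX, PDLIM4 and SLC22A4 at P4HA2, ZNHIT1 at PLOD3, PPME1 at P4HA3, and long non-coding RNAs at P4HA1, P4HA2, P4HA3, P4HB, PLOD2, LOXL1 and LOXL2). On the same strand, ENTPD4 overlaps LOXL2 and the non-coding LNCSRLR and an unnamed long non-coding RNA overlap PLOD2.

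Groups came from the sample titles. Counts of all 24 libraries were analysed in R 4.3.3 with edgeR 4.0.16: filterByExpr (minimum count 10) kept 11735 genes, TMM set the size factors, and the 4 group means were estimated in 1 quasi-likelihood fit. A gene was called at a Benjamini-Hochberg adjusted p under 0.05 over all of the genes kept, and intervals are 95%. Log2 CPM used a prior count of 2, and ratios a pseudocount of 0.5. Total counts from 770094 to 93851342 set the precision. Alternatives were DESeq2 1.42.0, limma 3.58.1 voom with sample quality weights, other size factors, no filter on low counts, the compared groups alone, the replicate number as a block, each library left out, a pseudocount of 2, and the shallowest library left out with hypoxia + ITE replicate 6. Refitting the pathway lists without normoxia + DMSO replicate 4 and the count of genes found in 1 library were chosen after seeing the data. The fits were tested on simulated data.

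The members and lists were chosen with earlier results of these data known. All members are named. Of other lists the text names genes past the threshold, or the 1 or 2 most abundant that did not pass, and the 3 genes most correlated with P4HA1, P4HA2, PLOD2 and LOX. COL1A1, COL1A2, COL3A1, DCN, MYH7 and CKM were named after their values were seen. Protein sequences were not used here.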

Additional observations from a re-analysis of the deposited data

Results flagged for a closer look

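Over 48 groups of 6 libraries (9 tested members and 3 ratios in 4 groups), 10 held a library far from the other 5 by Dixon's gap test. Chance would give 2.4 in 48 separate groups. These groups are not separate, since the 3 ratios use the reads of the same members. In hypoxia + ITE replicate 6, P4HB was highest at 2440 CPM (next 1140) and PLOD1 at 193 CPM, LOX was lowest at 14.2 CPM, and the log2 ratios of P4HA1 to P4HB (-4.48), PLOD2 to PLOD1 (0.162) and LOX to LOXL2 (-4.45) were the lowest, so 6 of the 10 are in this 1 library. P4HA1 was lowest in hypoxia + DMSO replicate 5 at 160 CPM, which was still above every normoxic library. PLOD3 was highest in normoxia + ITE replicate 2 at 90.0 CPM and lowest in hypoxia + DMSO replicate 6 at 54.2 CPM. LOXL2 was lowest in hypoxia + ITE replicate 3 at 214 CPM.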

How the results depend on the processing

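P4HA1 kept its call in both hypoxia comparisons under every alternative run, and PLOD2 did except with the compared groups alone and ITE present (0.72, adjusted p = 0.0964). The number of members higher in hypoxia + DMSO was 3, and 6 with limma-voom quality weights, where the share of all genes called higher also went from 1.16% to 4.37%. With ITE it was 2, with 1.89% of all genes, but 4 with DESeq2 (4.42% of all genes), 1 with the compared groups alone (0.702%) and 4 with quality weights (3.36%). Leaving out 1 library gave 137 to 637 genes higher with ITE, against 222. LOX lost its call in hypoxia + DMSO with upper-quartile factors (0.79, adjusted p = 0.0625). The labels do not say that a replicate number marks a shared batch, and deviations of same-numbered libraries correlated over 0.1 in 21 of 36 pairs, not in all, so the main fit has no block. The best match of 14 of 24 libraries had their own number, which is a hint of pairing from the data and not from the design. With the replicate block, LOX was called with DMSO (0.86, adjusted p = 0.00358) and with ITE (0.66, adjusted p = 0.0339), and no other member's call changed. Over all genes the block moved the calls from 136 to 149 higher with DMSO and from 222 to 193 with ITE. Paired by number (exact sign-flip test, smallest possible p 0.0312), the 3 ratios in hypoxia + DMSO and that of PLOD2 to PLOD1 between the hypoxic groups reached this p, adjusted 0.0938, so none passed after adjustment. With the shallowest library and hypoxia + ITE replicate 6 left out together, the 3 ratios under ITE differed by 1.03, 0.74 and 0.73 and passed the exact test. Leaving out 1 library gave 0.58 to 1.03 for P4HA1 to P4HB, 0.30 to 0.74 for PLOD2 to PLOD1 and 0.38 to 0.73 for LOX to LOXL2. Differences near 0 changed sign: PLOD1 in hypoxia + DMSO was -0.0244 with upper-quartile factors, -0.0065 without the filter, -0.0048 with the compared groups alone, -0.0104 with both libraries left out and -0.0411 to 0.0677 with 1 left out. LOXL1 in hypoxia + ITE was 0.0176 with quality weights and -0.165 to 0.0317 with 1 left out. The LOX interaction was 0.16 with quality weights, 0.0033 with both left out and -0.26 to 0.0055 with 1 left out, and the ratio of PLOD2 to PLOD1 under ITE in normoxia was -0.0665 to 0.0592. The cause was not tested. In the shallowest library P4HA1 rests on 163 reads and LOX on 35.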
